A study of Mus musculus with 9 samples.

Results

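The heart muscle RNA described here comes from 32 genes that carry glucose and lactate, run glycolysis, or build and break down glycogen. The genes were chosen by name, with earlier results of these data known. All 32 were found by their Ensembl identifiers among the 38293 genes of the count table. Of these, 31 passed the filter on low counts and were tested, and Aldoc did not. RNA was sequenced from the left ventricle of 9 male C57BL/6 mice aged 8 weeks, with 3 mice in each of 3 groups. Mice 1, 2 and 3 had sham surgery, and the other groups had the left anterior descending coronary artery tied for 1 hour and then reopened, which is ischemia-reperfusion (I/R). Mice 4, 5 and 6 were sampled 1 day after I/R and the third group 14 days after it. All groups share the strain, sex and age, and the labels name no drug and no altered gene in any of them. The labels give the infarcted region as the tissue, for the sham mice as well, and do not give the time at which sham tissue was taken. In the count table the columns of the 14-day mice carry 1 and the same heading, and A, B and C are used below as names for them. The comparisons ask how each I/R group differs from sham and how the I/R groups differ from each other.

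Glucose enters muscle cells through carriers of the SLC2A family, of which GLUT4 (Slc2a4) is the insulin-responsive form of heart and skeletal muscle and GLUT1 (Slc2a1) is widely expressed. Glycolysis turns glucose into pyruvate in a chain of enzymes, many of which exist in a muscle form and a broadly expressed form encoded by separate genes, and phosphofructokinase is its main point of control. Pyruvate can be oxidised in mitochondria or reduced to lactate, which crosses the membrane on monocarboxylate carriers, while glycogen is a store of glucose within the cell. The adult heart draws most of its energy from fatty acids and relies more on glucose and glycogen when oxygen is short. Hypoxia-inducible factor is known to bind the core letters ACGTG or GCGTG and to activate genes of glycolysis, and MEF2 factors are known activators of muscle genes.

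Promoter windows of 300 bases, from 250 before to 50 after the annotated start, were available from RefSeq (build GRCm38.p6) for 31 of the 32 members. Below are the windows of Slc2a1 and Slc16a3, which had the highest rises at 1 day by log2 fold, of Ldha, which holds the cores but was not called in any comparison, and of Pgam2, a muscle form that fell. Each is written 5′ to 3′ on the strand of its gene, and the capitals mark the hypoxia cores ACGTG and GCGTG on either strand or, in Pgam2, the MEF2 motif.
Slc2a1, chr4:119108495-119108794, plus strand: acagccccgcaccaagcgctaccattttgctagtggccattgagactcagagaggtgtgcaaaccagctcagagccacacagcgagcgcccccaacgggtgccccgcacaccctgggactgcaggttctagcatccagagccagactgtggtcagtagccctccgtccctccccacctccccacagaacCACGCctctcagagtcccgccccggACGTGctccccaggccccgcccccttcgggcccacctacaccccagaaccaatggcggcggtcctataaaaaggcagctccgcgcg
Slc16a3, chr11:120948817-120949116, plus strand: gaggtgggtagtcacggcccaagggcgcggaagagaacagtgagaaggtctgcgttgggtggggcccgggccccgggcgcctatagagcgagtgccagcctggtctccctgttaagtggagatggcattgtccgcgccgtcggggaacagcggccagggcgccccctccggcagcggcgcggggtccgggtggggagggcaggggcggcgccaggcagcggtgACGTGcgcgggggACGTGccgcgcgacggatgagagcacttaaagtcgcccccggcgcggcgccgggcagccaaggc
Ldha, chr7:46845554-46845853, plus strand: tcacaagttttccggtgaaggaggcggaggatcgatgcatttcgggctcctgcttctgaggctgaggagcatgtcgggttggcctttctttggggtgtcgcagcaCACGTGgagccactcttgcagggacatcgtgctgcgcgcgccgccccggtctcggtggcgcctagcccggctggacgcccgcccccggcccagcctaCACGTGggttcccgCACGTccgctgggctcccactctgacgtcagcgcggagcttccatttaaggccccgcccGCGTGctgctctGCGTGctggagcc
Pgam2, chr11:5803747-5804046, minus strand: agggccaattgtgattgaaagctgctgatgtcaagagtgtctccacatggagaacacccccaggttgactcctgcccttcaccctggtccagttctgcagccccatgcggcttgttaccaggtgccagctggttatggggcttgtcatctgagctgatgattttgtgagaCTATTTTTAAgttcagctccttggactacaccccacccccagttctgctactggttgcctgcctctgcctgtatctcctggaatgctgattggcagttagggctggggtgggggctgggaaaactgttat
The Slc2a1 window held 1 ACGTG and 1 GCGTG, the Slc16a3 window held 2 ACGTG, and the Ldha window held 5 ACGTG and 2 GCGTG. Each CACGTG counts as ACGTG on both strands, and the Ldha window had 2 of these. Over all promoter windows of a gene and both strands, ACGTG was present for 19 of 31 members (61.3%) and for 23.2% of 17492 protein-coding genes, and GCGTG for 21 members (67.7%) and 41.4% of protein-coding genes. CACGTG, the E box, which contains ACGTG, was present for 6 members (19.4%, against 8.91%), and GGGCGG, the GC box, for 23 (74.2%, against 49.2%). The MEF2 motif was present for 2 members, Pfkfb1 and Pgam2 (6.45%, against 3.27%). Genes differ in their number of windows, and members such as Pfkm and Pfkfb1 have several. More windows give more chances of a match, and these shares are not adjusted for that. Of the members that fell at 1 day, Aldoa, Pfkfb2, Pfkm, Pygb, Pygm, Slc16a1 and Ugp2 held ACGTG in a window. Eno3, Ldhb, Pfkfb1 and Pfkl held only GCGTG, Gpi1, Gys1, Tpi1 and Pgam2 held neither, and Slc2a4 had no window. Of those that rose, Slc2a1, Slc16a3, Hk1, Pfkfb3 and Pgk1 held ACGTG, Pfkp and Eno1 held only GCGTG, and Gbe1 held neither. The part of the cores in these changes was not tested. These matches are descriptions of the letters and do not show binding.

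Total counts ran from 20215781 to 36816818 per library, and from 5706225 to 14501223 without mitochondrially encoded and ribosomal RNA genes. CPM below is the count of a gene per 1000000 counts, with library sizes scaled by TMM, and values per library stand in the order mouse 1, 2, 3 (sham), mouse 4, 5, 6 (1 day) and library A, B, C (14 days). A gene was called where the adjusted p of edgeR's quasi-likelihood test over all 14124 tested genes was below 0.05. The p-values of edgeR weigh each difference against the spread between mice, estimated over all 3 groups in 1 fit. The summed level of 8 cardiomyocyte markers was 22800 to 25100 CPM in sham, 7990 to 15300 CPM at 1 day and 16600 to 22300 CPM at 14 days. The 7 neutrophil markers together reached 1.72 to 5.11 CPM in sham, 50.8 to 144 CPM at 1 day and 2.22 to 3.6 CPM at 14 days. For 8 monocyte and macrophage markers the sums were 118 to 134, 239 to 271 and 185 to 362 CPM, and for 7 fibroblast markers 543 to 988, 782 to 1090 and 2010 to 4970 CPM. The 6 endothelial markers summed to 415 to 444, 321 to 332 and 343 to 433 CPM, and the 6 markers of smooth muscle and pericytes to 437 to 450, 230 to 331 and 471 to 548 CPM. Markers of red blood cells summed to 93.4 to 154, 51.7 to 73.4 and 99.3 to 120 CPM, those of fast skeletal muscle other than Ckm stayed at or below 3.03 CPM, and those of adipocytes at or below 0.461 CPM, with Lep at 0 in all 9 libraries. Against sham, 7 of 8 cardiomyocyte markers and 5 of 5 red cell markers were called lower at 1 day, 6 of 6 tested neutrophil markers and 5 of 8 monocyte and macrophage markers higher, and at 14 days 7 of 7 fibroblast markers and 6 of 8 monocyte and macrophage markers higher. Of the 6 smooth muscle and pericyte markers 3 were called higher and 2 lower at 1 day, although their sum was lower, and 2 of the 6 endothelial markers were called lower. These markers moved with the groups in the results that follow, and their part in the results was not tested. In RNA from whole tissue, fewer cells of a type and less RNA per cell cannot be told apart.

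At 1 day some steps had a muscle gene that fell and another gene that rose. These included the glucose carriers (Slc2a4 and Slc2a1), phosphofructokinase (Pfkm and Pfkp) and enolase (Eno3 and Eno1). Of the lactate carriers, Slc16a1, the more abundant in sham, fell and Slc16a3 rose, although Slc16a1 was not called under total count alone. Pfkl, which was likewise not called under total count alone, and Pygb fell together with the muscle genes of their steps. Hk2, Pgam1 and Ldha were not called, but were called higher under total count alone. The lactate exporter gene Slc16a3 rose 10.8-fold, Slc2a1 rose 3.70-fold and the platelet-type phosphofructokinase Pfkp rose 2.93-fold, while the heart-type regulator Pfkfb2 fell 3.95-fold, Slc2a4 fell 3.59-fold and the muscle-type phosphofructokinase Pfkm fell 2.64-fold. Of the 31 members tested, 24 were called against sham at 1 day (77.4%), beside 54.2% of all genes tested. Of these 8 rose (25.8%, beside 29.4% of all genes) and 16 fell (51.6%, beside 24.8% of all genes). The groups did not overlap for the same 24 members, 77.4% of the 31 tested (25.8% higher and 51.6% lower), beside 63.2% of all genes (33.5% higher and 29.7% lower). The median log2 fold of the members was -0.33, and that of all genes was 0.04. Scaling by total count alone shifted the median of all genes to 0.53 and that of the members to 0.14, and the count became 14 higher and 10 lower members, with 6860 higher and 1057 lower among all genes in place of 4153 and 3496. Under it Gpi1, Pfkl, Aldoa, Tpi1, Slc16a1 and Gys1 lost their lower call, and Hk2, Pfkfb4, Gapdh, Pgam1, Ldha and Gyg were called higher. The calls of the other 18 members named at 1 day below kept their side of the threshold under each scaling tried.

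At 14 days 3 of the 31 members were called against sham (9.68%), beside 14.4% of all genes. Pfkfb3 was higher (3.23% of members, beside 8.75% of all genes), and Pfkl and Gys1 were lower (6.45%, beside 5.64%). The groups did not overlap for 10 members (32.3%, beside 39.4% of all genes), of which 9 were lower (29.0%, beside 18.4%). The median log2 fold was -0.23 for the members and 0.01 for all genes. Each of the 3 calls was lost when certain single libraries were left out. Leaving out mouse 1 or library B left 0 lower members, leaving out mouse 3 left 1, and leaving out mouse 2 or library C left 0 in either direction. Leaving out library A gave 3 higher members, and leaving out mouse 6, which lies outside this comparison but enters the shared spread, gave 7 lower members. Between 14 days and 1 day 23 members were called (74.2%, beside 51.9% of all genes), with 12 higher at 14 days (38.7%, beside 25.1%) and 11 lower (35.5%, beside 26.8%). The groups did not overlap for those 12 (38.7% of the 31 tested, beside 27.3% of all genes). They did not overlap for 10 of the 11 (32.3% of the 31, beside 29.0%, a share near that of all genes). Under total count alone 0 members were lower at 14 days than in sham, beside 0.793% of all genes. Under it 7 members were higher at 14 days than at 1 day, beside 7.55% of all genes. The medians of all genes were 0.11 and -0.38. The members that lost their higher call between 14 days and 1 day under that scaling were Tpi1 (edgeR adjusted p = 0.157), Pgam2 (0.0703), Slc16a1 (0.632), Pygm (0.144) and Pygb (0.0795), and Pkm was then called lower (log2 fold -0.58, edgeR adjusted p = 0.0185). The comparisons at 1 day and 14 days share the sham mice, and the others share the libraries of 1 day or 14 days.

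**Figure D1:**
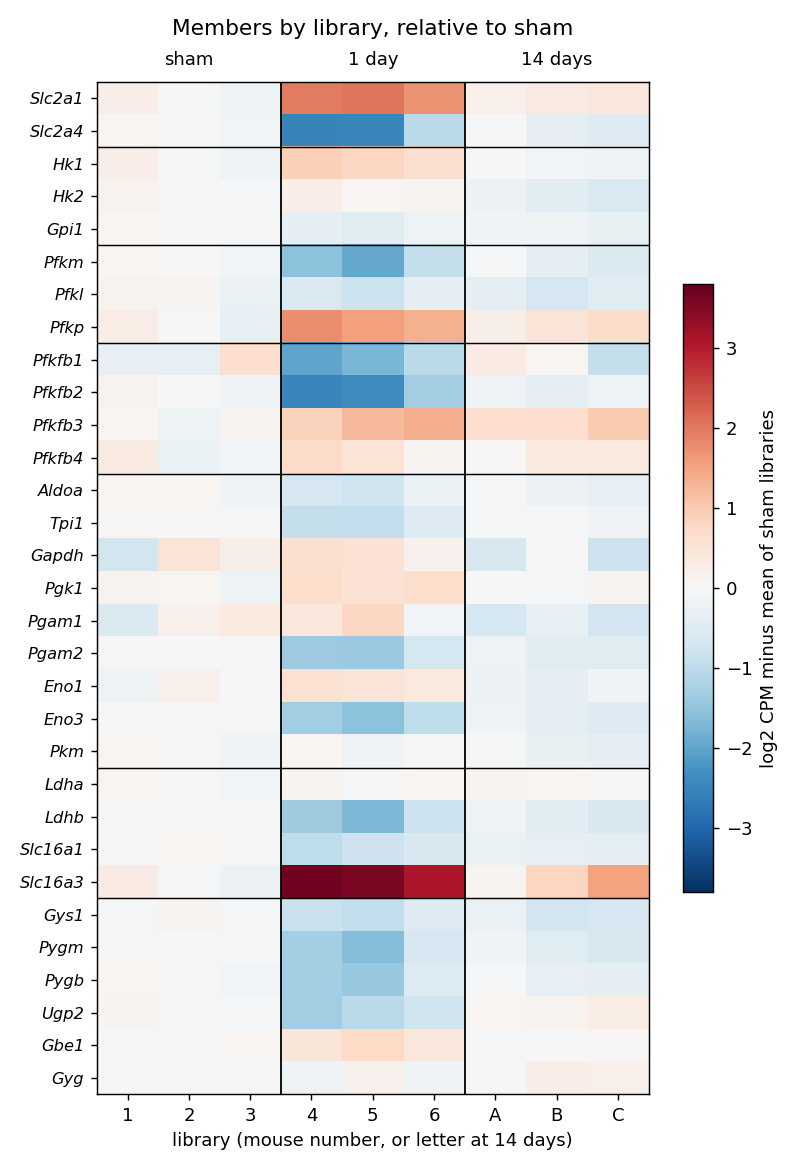
Heat map of the 31 tested members (rows, ordered by step) in the 9 libraries (columns), coloured by log2 CPM minus the mean log2 CPM of the 3 sham libraries of that gene. The 1-day columns are blue for the muscle forms such as Slc2a4, Pfkm and Eno3 and red for Slc2a1, Pfkp and Slc16a3, and mouse 6 is paler than mice 4 and 5 in most rows.

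The libraries of 1 day were not alike. Mouse 6 lay nearest to the sham mice for 22 of the 24 members called at 1 day, and for 82.3% of all 7649 genes called. Its cardiomyocyte markers summed to 15300 CPM, against 9690 in mouse 4 and 7990 in mouse 5, and its neutrophil markers to 50.8 CPM, against 125 and 144. Without mouse 6 there were 9 higher and 16 lower of 31 members at 1 day, beside 31.7% and 26.4% of all genes. The median log2 fold of the members was then -0.42, and that of all genes was 0.06.

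The glucose carrier of muscle fell at 1 day while the general one rose. Slc2a1 encodes the broadly expressed carrier GLUT1 (chr4:119108711-119137983, build GRCm38). Slc2a1 measured 5.53, 4.48 and 4.09 CPM in sham, 18.2, 19.0 and 15.2 CPM at 1 day and 5.37, 5.75 and 6.13 CPM at 14 days. The 3 libraries of 1 day lay above all others, and the 14-day libraries overlapped sham. Slc2a1 rose at 1 day (log2 fold 1.89, SE 0.13, edgeR adjusted p = 5.32e-06) and was lower at 14 days than at 1 day (log2 fold -1.61, SE 0.13, edgeR adjusted p = 8.24e-06). Slc2a4 encodes the insulin-responsive GLUT4 (chr11:69942539-69948188). Slc2a4 measured 143, 136 and 127 CPM in sham, 23.3, 24.2 and 66.3 CPM at 1 day and 135, 108 and 96.1 CPM at 14 days. All 1-day libraries were below sham, mouse 6 the least, and the 14-day libraries were spread from within the sham range to below it. Slc2a4 fell at 1 day (log2 fold -1.84, SE 0.37, edgeR adjusted p = 0.00287) and was higher at 14 days than at 1 day (log2 fold 1.58, SE 0.37, edgeR adjusted p = 0.00648). At 14 days against sham neither was called, with adjusted p = 0.199 for Slc2a1 and 0.672 for Slc2a4 in edgeR. The ratio of Slc2a1 to Slc2a4 in counts per kilobase of exon, in which the scaling of a library cancels, was 0.0383, 0.0326 and 0.032 in sham, 0.775, 0.779 and 0.228 at 1 day and 0.0393, 0.053 and 0.0633 at 14 days. It was 15.1-fold higher at 1 day (log2 difference 3.91, SE 0.60), with no overlap, and Slc2a4 remained the more abundant of both in every library. Without mouse 6 the log2 difference was 4.50. Slc2a1 made up 3.32% ± 0.324 in sham, 35.3% ± 14.5 at 1 day and 4.92% ± 1.09 at 14 days of the summed level of both carriers per kilobase, as the mean ± SD over 3 libraries, like the shares and sums that follow. The summed level itself was 40.2 ± 2.57 CPM per kilobase in sham, 15.9 ± 6.52 at 1 day and 34.1 ± 5.71 at 14 days.

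**Figure D2:**
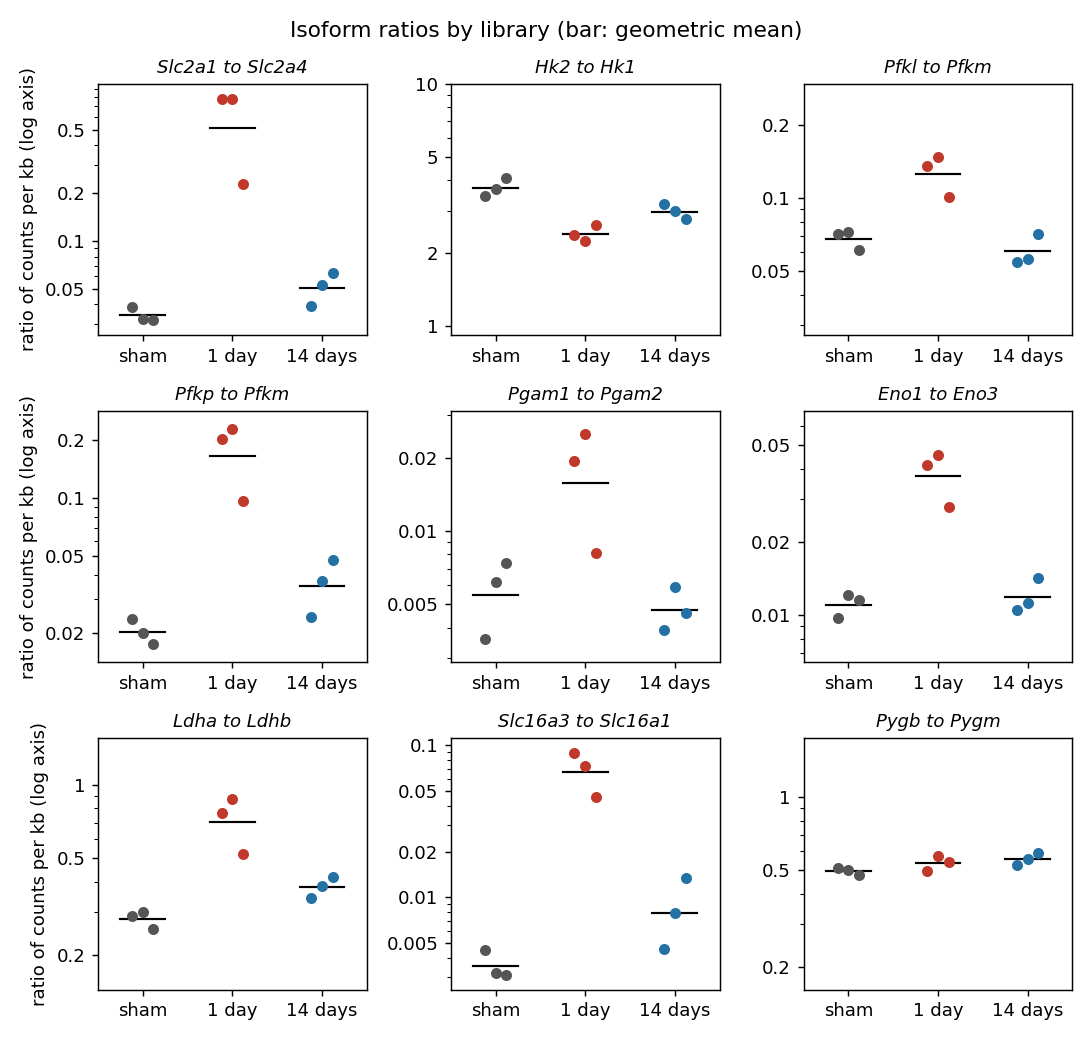
Ratio of counts per kilobase of exon for 9 isoform pairs (log axes, 1 point per library, 3 libraries per group, bar at the geometric mean). The ratio of Slc2a1 to Slc2a4 lies between 0.228 and 0.779 at 1 day and at or below 0.0633 in the other libraries, while the ratio of Pygb to Pygm stays between 0.48 and 0.588 throughout.

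Hexokinase traps glucose in the cell by phosphorylation. Hk1 encodes the broadly expressed form, and Hk2 the form typical of muscle and insulin-responsive tissue. Hk1 measured 68.7, 55.0 and 50.6 CPM in sham, 108, 100.1 and 88.0 CPM at 1 day and 57.9, 53.6 and 52.4 CPM at 14 days. The 3 libraries of 1 day were above the rest, and those of 14 days lay within the sham range. Hk1 rose 1.70-fold at 1 day (log2 fold 0.76, SE 0.13, edgeR adjusted p = 0.000513) and was lower at 14 days than at 1 day (log2 fold -0.85, SE 0.13, edgeR adjusted p = 0.000287). Hk2 measured 165, 142 and 145 CPM in sham, 179.9, 157 and 161 CPM at 1 day and 129, 112 and 101 CPM at 14 days. Its 1-day libraries overlapped sham (log2 fold 0.14, SE 0.12, edgeR adjusted p = 0.362), and its 14-day libraries were all below sham, at the edge of the threshold (log2 fold -0.40, SE 0.12, edgeR adjusted p = 0.0503). That 14-day difference was called under 7 of the other settings tried, with adjusted p from 0.00582 to 0.0488, and without mouse 4 (0.0465), mouse 6 (0.0191) or library A (0.0186). Hk2 was lower at 14 days than at 1 day (log2 fold -0.54, SE 0.12, edgeR adjusted p = 0.00381). The ratio of Hk2 to Hk1 per kilobase was 3.44, 3.70 and 4.09 in sham, 2.39, 2.25 and 2.61 at 1 day and 3.19, 2.99 and 2.76 at 14 days. It was 1.55-fold lower at 1 day (log2 difference -0.63, SE 0.10) and 1.26-fold lower at 14 days (log2 difference -0.33, SE 0.09), in both cases without overlap. Hk1 held 21.1% ± 1.45 in sham, 29.3% ± 1.55 at 1 day and 25.2% ± 1.37 at 14 days of the summed level. The next enzyme, glucose-phosphate isomerase, is encoded by Gpi1, which measured 105, 103 and 95.3 CPM in sham, 78.9, 72.9 and 89.1 CPM at 1 day and 91.2, 90.05 and 82.8 CPM at 14 days. The 1-day and 14-day libraries were all below sham. Gpi1 fell at 1 day (log2 fold -0.33, SE 0.10, edgeR adjusted p = 0.0187), a call that was lost without mouse 1, 2 or 5 (adjusted p from 0.0614 to 0.0813). It was not called at 14 days (adjusted p = 0.222 in edgeR), and 1 near-identical copy, Gm1840, held 23.0% of the counts of both.

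Phosphofructokinase commits sugar to glycolysis, and its muscle, liver and platelet subunits are encoded by Pfkm, Pfkl and Pfkp. Pfkm measured 304, 293 and 272 CPM in sham, 97.9, 75.5 and 155 CPM at 1 day and 283, 223 and 199 CPM at 14 days. Libraries of 1 day were far below sham, mouse 6 the least, and the 14-day libraries reached from within sham to below it. Pfkm fell at 1 day (log2 fold -1.40, SE 0.23, edgeR adjusted p = 0.000623) and was higher at 14 days than at 1 day (log2 fold 1.10, SE 0.23, edgeR adjusted p = 0.00262). Pfkl measured 43.0, 42.4 and 33.1 CPM in sham, 26.4, 22.1 and 31.2 CPM at 1 day and 30.9, 25.1 and 28.3 CPM at 14 days. Both I/R groups lay wholly below sham and overlapped each other. Pfkl fell at 1 day (log2 fold -0.58, SE 0.14, edgeR adjusted p = 0.00477) and at 14 days (log2 fold -0.50, SE 0.14, edgeR adjusted p = 0.0354), and the 14-day call was lost without mouse 1, 2 or 4 or library B or C (adjusted p from 0.0508 to 0.151). Pfkp measured 28.7, 23.4 and 19.0 CPM in sham, 79.9, 69.0 and 60.1 CPM at 1 day and 27.4, 33.1 and 37.9 CPM at 14 days. At 1 day all 3 were above the others, and the 14-day libraries overlapped sham at their lower end. Pfkp rose at 1 day (log2 fold 1.55, SE 0.17, edgeR adjusted p = 6.34e-05) and was lower at 14 days than at 1 day (log2 fold -1.09, SE 0.16, edgeR adjusted p = 0.000381), with adjusted p = 0.0875 at 14 days against sham in edgeR, or 0.0306 without library A.

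The ratio of Pfkp to Pfkm per kilobase was 0.0236, 0.02 and 0.0175 in sham, 0.203, 0.228 and 0.0967 at 1 day and 0.0241, 0.037 and 0.0475 at 14 days, 8.16-fold higher at 1 day (log2 difference 3.03, SE 0.41). No library of 1 day or 14 days overlapped sham in this ratio, although library A was only just above mouse 1. The ratio of Pfkl to Pfkm was 0.0709, 0.0725 and 0.061 in sham, 0.135, 0.147 and 0.101 at 1 day and 0.0547, 0.0562 and 0.0711 at 14 days. It was 1.85-fold higher at 1 day (log2 difference 0.89, SE 0.18), although Pfkl itself fell, and it overlapped sham at 14 days (two-sided exact permutation p = 0.3). Pfkm supplied 91.9% ± 0.738 in sham, 77.0% ± 5.73 at 1 day and 91.2% ± 1.67 at 14 days of the summed level per kilobase, and Pfkp 1.87% ± 0.269 in sham, 13.3% ± 4.56 at 1 day and 3.29% ± 1.01 at 14 days. Pfkp has much annotated exon outside its principal transcript, and with the length of that transcript its share was 4.87% ± 0.671 in sham, 28.3% ± 8.22 at 1 day and 8.38% ± 2.42 at 14 days. The sum of the 3 subunits was 94.3 ± 6.03 CPM per kilobase in sham, 42.0 ± 12.5 at 1 day and 77.0 ± 12.8 at 14 days.

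**Figure D3:**
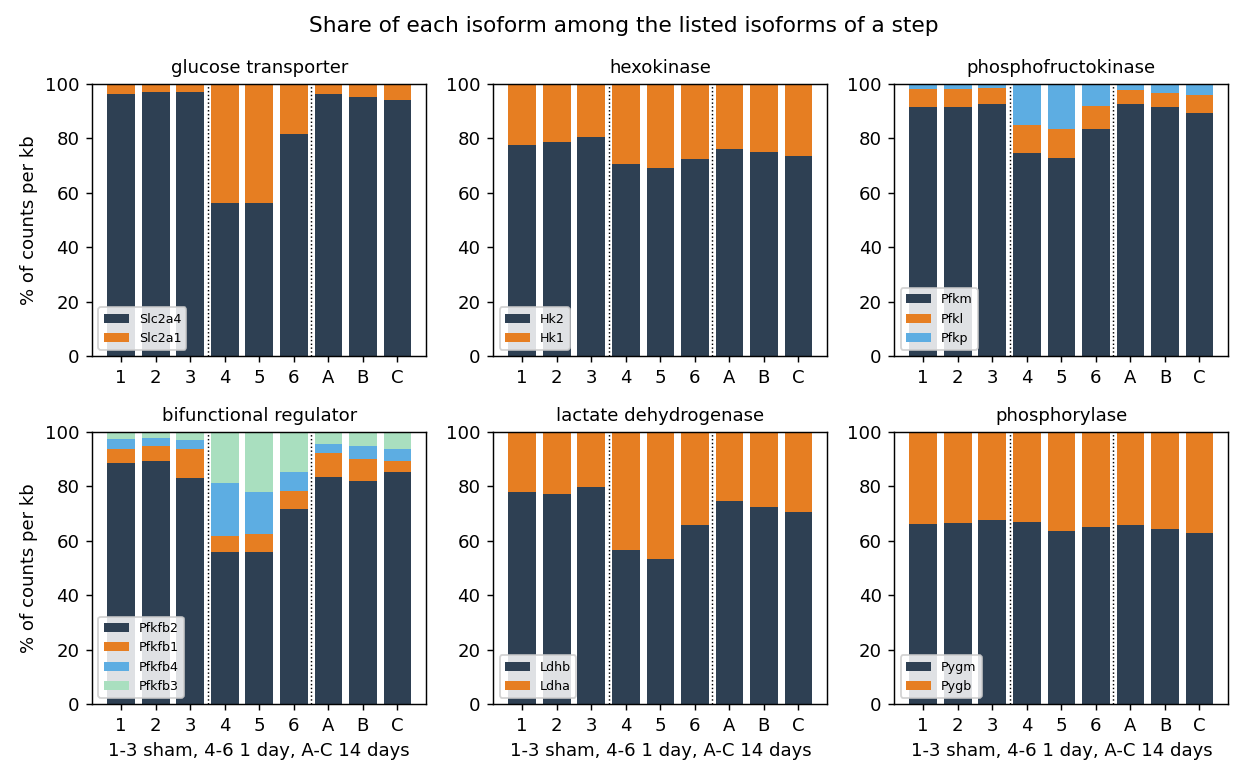
Share of each isoform in the summed counts per kilobase of its step (percent, stacked bars from 0, 1 bar per library) for 6 steps. Lengths are those of all annotated exons. With them the muscle or heart forms Slc2a4, Pfkm, Pfkfb2 and Ldhb hold the largest share in every library, and their share is smallest at 1 day. With the length of the principal transcript Ldhb held 45.6% in mouse 4, 42.3% in mouse 5 and 55.4% in mouse 6.

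Enzymes encoded by the Pfkfb genes make and break down the fructose bisphosphate that serves as an activating signal for phosphofructokinase. Pfkfb2, the heart form, measured 127, 118 and 106 CPM in sham, 20.3, 22.1 and 46.7 CPM at 1 day and 106, 92.2 and 101 CPM at 14 days. At 1 day all were far below sham, and the 14-day libraries were at or just below the lower end of sham. Pfkfb2 fell 3.95-fold at 1 day (log2 fold -1.98, SE 0.27, edgeR adjusted p = 0.000331) and was higher at 14 days than at 1 day (log2 fold 1.76, SE 0.27, edgeR adjusted p = 0.000636). Pfkfb1, known from liver and muscle, measured 3.89, 3.94 and 7.54 CPM in sham, 1.22, 1.47 and 2.38 CPM at 1 day and 5.99, 5.13 and 2.58 CPM at 14 days. Its 1-day libraries were below sham, and sham mouse 3 stood above mice 1 and 2. Pfkfb1 fell at 1 day (log2 fold -1.61, SE 0.39, edgeR adjusted p = 0.00595) and was higher at 14 days than at 1 day (log2 fold 1.49, SE 0.38, edgeR adjusted p = 0.00875). Pfkfb3, the inducible form with strong kinase activity, measured 4.10, 3.40 and 4.15 CPM in sham, 7.13, 9.09 and 10.2 CPM at 1 day and 6.03, 6.04 and 7.73 CPM at 14 days. All libraries of both I/R groups were above sham, and the I/R groups overlapped each other. Pfkfb3 rose 2.26-fold at 1 day (log2 fold 1.18, SE 0.17, edgeR adjusted p = 0.000222) and 1.70-fold at 14 days (log2 fold 0.77, SE 0.17, edgeR adjusted p = 0.0138). The 14-day call was lost without mouse 2 (adjusted p = 0.0823) or library C (0.0649), and the difference between 14 days and 1 day (log2 fold -0.41, SE 0.16, edgeR adjusted p = 0.0447) was lost under 5 other settings and without any of mice 1, 2, 3, 5 and 6 and libraries A and B. Pfkfb4 measured 3.64, 2.43 and 2.68 CPM in sham, 4.75, 4.09 and 3.09 CPM at 1 day and 2.94, 3.69 and 3.68 CPM at 14 days. Its groups overlapped, with adjusted p = 0.0728 at 1 day in edgeR, which became 0.0302 without mouse 1 and 0.0145 without mouse 6. Pfkfb2 made up 87.0% ± 3.43 in sham, 61.0% ± 9.04 at 1 day and 83.5% ± 1.72 at 14 days of the summed level per kilobase and Pfkfb3 2.78% ± 0.323 in sham, 18.6% ± 3.56 at 1 day and 5.31% ± 0.867 at 14 days. The sum over the 4 genes was 18.5 ± 1.12 CPM per kilobase in sham, 6.50 ± 2.19 at 1 day and 16.5 ± 1.00 at 14 days. Pfkfb2 shares 19.5% of its exonic bases with the genes Gm29427 and Yod1, and Pfkm 10.7% with Gm26513 and Senp1. Pkm shares 15.3% with Gm49759 and Gpi1 11.5% with Gm26762. Gm29427, Gm26513 and Gm49759 lie on the strand of the member, so part of the counts could belong to either gene. Yod1, Senp1 and Gm26762 lie on the opposite strand. Whether reads from them were kept apart depends on the strand setting of the counting, which is not given.

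**Figure D4:**
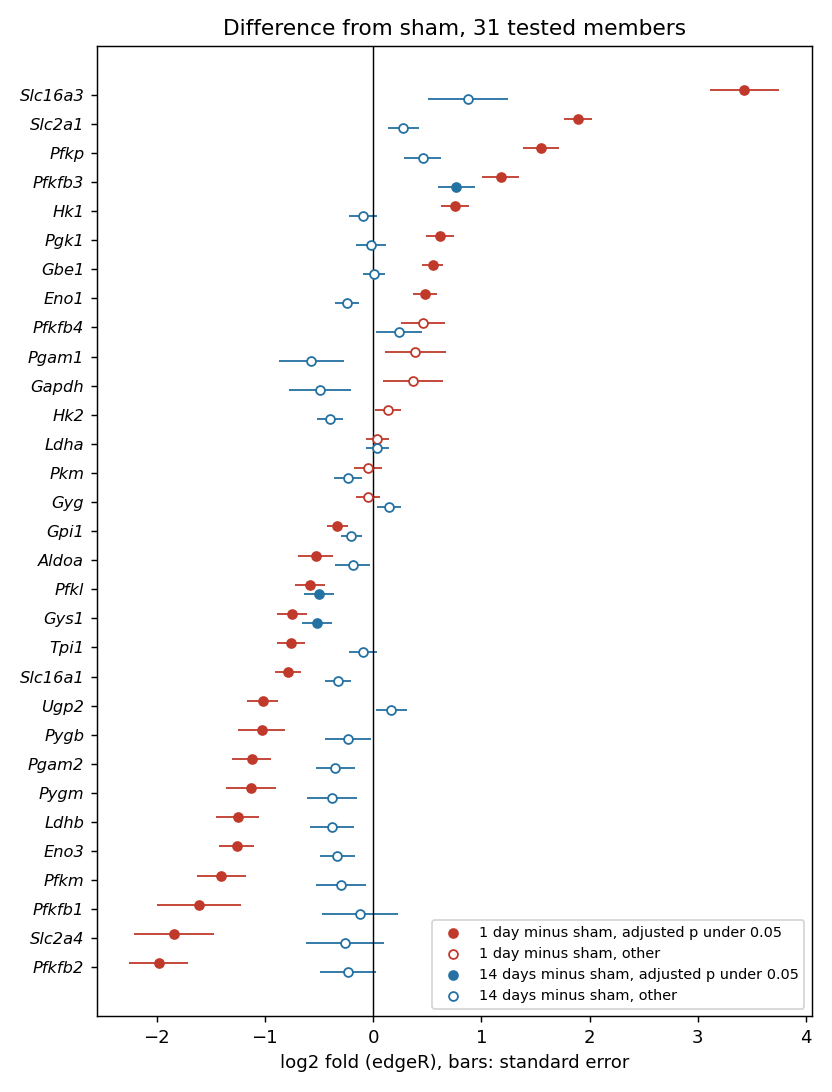
Log2 fold against sham of the 31 tested members (points, bars are 1 SE from the edgeR fit, red for 1 day and blue for 14 days, filled where the adjusted p was below 0.05). At 1 day the folds run from -1.98 for Pfkfb2 to 3.43 for Slc16a3, and at 14 days only Pfkfb3, Pfkl and Gys1 are filled.

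Aldolase splits the sugar into trioses. Aldoa, its muscle and general form, measured 661, 660.4 and 579 CPM in sham, 406, 374 and 533 CPM at 1 day and 609.5, 545 and 512 CPM at 14 days. Mice 4 and 5 were well below sham and mouse 6 just below it. Aldoa fell at 1 day (log2 fold -0.53, SE 0.16, edgeR adjusted p = 0.0164), and the call was lost without mouse 1, 2, 4 or 5 (adjusted p from 0.056 to 0.067). Aldoc, the brain form, was not tested, with 1, 1 and 1 counts in sham, 8, 5 and 5 at 1 day and 2, 1 and 2 at 14 days. Triose-phosphate isomerase, encoded by Tpi1, measured 154, 150.2 and 142 CPM in sham, 80.1, 77.8 and 106 CPM at 1 day and 145, 140.0 and 135 CPM at 14 days. Mice 4, 5 and 6 were below all others, and Tpi1 fell at 1 day (log2 fold -0.76, SE 0.13, edgeR adjusted p = 0.000573) and was higher at 14 days than at 1 day (log2 fold 0.67, SE 0.13, edgeR adjusted p = 0.00125). Glyceraldehyde-phosphate dehydrogenase and phosphoglycerate kinase follow in the pathway. The counts under Gapdh were only 1196 over all libraries, against 3903 under 81 near-identical copies, and its level is therefore uncertain. Gapdh measured 2.72, 6.17 and 5.18 CPM in sham, 6.70, 6.47 and 4.93 CPM at 1 day and 2.91, 4.43 and 2.58 CPM at 14 days. The 14-day libraries were all below those of 1 day, and sham overlapped both. Gapdh was lower at 14 days than at 1 day (log2 fold -0.86, SE 0.28, edgeR adjusted p = 0.0267), a call that ended when the copies were added (adjusted p = 0.979), when no filter was used, or without mouse 4 or 5 or library A or C. With the copies added the 1-day fold turned from 0.37 to -0.20 (adjusted p = 0.222 in edgeR). Pgk1 measured 3.60, 3.50 and 2.88 CPM in sham, 5.29, 4.88 and 5.24 CPM at 1 day and 3.29, 3.14 and 3.56 CPM at 14 days. Its 1-day libraries were above all others, and Pgk1 rose at 1 day (log2 fold 0.62, SE 0.13, edgeR adjusted p = 0.00248) and was lower at 14 days than at 1 day (log2 fold -0.63, SE 0.13, edgeR adjusted p = 0.00211). How the authors' counting treated reads that match several genes is not given in the sources used here, so low levels such as that of Pgk1 are uncertain too.

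Phosphoglycerate mutase and enolase each have a muscle gene that far exceeded the general one in these counts. The general genes Pgam1 and Eno1 have near-identical copies, and reads that match several genes may be missing from them. Their levels, ratios and shares are therefore uncertain. The muscle mutase Pgam2 measured 119, 116 and 110.5 CPM in sham, 43.9, 43.1 and 72.4 CPM at 1 day and 101, 86.3 and 83.0 CPM at 14 days. The 1-day libraries were below all others, mouse 6 the least, and the 14-day libraries were below sham. Pgam2 fell at 1 day (log2 fold -1.12, SE 0.18, edgeR adjusted p = 0.000522), was higher at 14 days than at 1 day (log2 fold 0.77, SE 0.18, edgeR adjusted p = 0.00468), and had adjusted p = 0.214 at 14 days against sham, or 0.0159 without mouse 6. Pgam1 measured 1.00, 1.69 and 1.92 CPM in sham, 2.01, 2.54 and 1.39 CPM at 1 day and 0.935, 1.202 and 0.899 CPM at 14 days. The 14-day libraries were below those of 1 day, and both overlapped sham. Pgam1 was lower at 14 days than at 1 day (log2 fold -0.96, SE 0.28, edgeR adjusted p = 0.0141), a call lost without mouse 5 (adjusted p = 0.061), and 37.0% of the counts of it and its 3 copies lay in the copies. The ratio of Pgam1 to Pgam2 per kilobase was 0.00359, 0.00617 and 0.00735 in sham, 0.0194, 0.025 and 0.00813 at 1 day and 0.00391, 0.0059 and 0.0046 at 14 days, and it was 2.89-fold higher at 1 day (log2 difference 1.53, SE 0.58). Mouse 6 lay close above the highest sham mouse in this ratio. The muscle enolase Eno3 measured 377, 393 and 368 CPM in sham, 151, 129 and 195 CPM at 1 day and 340.2, 297 and 271 CPM at 14 days. The order was 1 day lowest, then 14 days, then sham, with no overlap. Eno3 fell at 1 day (log2 fold -1.26, SE 0.16, edgeR adjusted p = 0.000127) and was higher at 14 days than at 1 day (log2 fold 0.94, SE 0.16, edgeR adjusted p = 0.000715), while its 14-day libraries against sham had adjusted p = 0.193, or 0.0456 without mouse 6. Eno1 measured 11.3, 14.7 and 13.1 CPM in sham, 19.4, 18.2 and 16.9 CPM at 1 day and 11.1, 10.3 and 11.9 CPM at 14 days. The 1-day libraries were above all others and the 14-day libraries overlapped sham, and 10.3% of the counts of Eno1 and its 3 copies lay in the copies. Eno1 rose at 1 day (log2 fold 0.48, SE 0.11, edgeR adjusted p = 0.00365) and was lower at 14 days than at 1 day (log2 fold -0.72, SE 0.11, edgeR adjusted p = 0.000385). The ratio of Eno1 to Eno3 was 0.0097, 0.0121 and 0.0115 in sham, 0.0416, 0.0457 and 0.028 at 1 day and 0.0105, 0.0112 and 0.0142 at 14 days, 3.41-fold higher at 1 day (log2 difference 1.77, SE 0.24). Even so Eno1 was only 1.10% ± 0.121 in sham, 3.70% ± 0.86 at 1 day and 1.18% ± 0.192 at 14 days of the summed enolase level, and the sum was 221 ± 7.31 CPM per kilobase in sham, 94.4 ± 19.1 at 1 day and 176 ± 20.1 at 14 days. Pyruvate kinase, the last step, is encoded by Pkm, whose muscle and growth forms M1 and M2 are spliced from 1 gene and are not separated in these counts. Pkm measured 258, 253 and 226 CPM in sham, 261, 222 and 232 CPM at 1 day and 236, 202 and 193 CPM at 14 days, with overlap between all groups and adjusted p of 0.784 at 1 day and 0.261 at 14 days in edgeR.

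Lactate dehydrogenase interconverts pyruvate and lactate. Its A subunit is the form of skeletal muscle and the B subunit that of the heart. Ldha measured 134, 132 and 118 CPM in sham, 137, 122 and 134 CPM at 1 day and 138, 133 and 124 CPM at 14 days. All groups overlapped, and no comparison called it (log2 fold 0.04, SE 0.11 at 1 day and 0.04, SE 0.11 at 14 days). Ldhb measured 221, 209 and 219 CPM in sham, 84.98, 65.8 and 123 CPM at 1 day and 191, 164 and 142 CPM at 14 days. The 1-day libraries were below all others, and the 14-day libraries were also below sham. Of the counts of Ldhb and its copy, 5.08% lay in the copy. Ldhb fell 2.37-fold at 1 day (log2 fold -1.25, SE 0.20, edgeR adjusted p = 0.000464), was higher at 14 days than at 1 day (log2 fold 0.86, SE 0.20, edgeR adjusted p = 0.00397) and had adjusted p = 0.214 at 14 days, or 0.0376 without mouse 6. The ratio of Ldha to Ldhb per kilobase was 0.288, 0.299 and 0.255 in sham, 0.766, 0.878 and 0.518 at 1 day and 0.343, 0.384 and 0.416 at 14 days. It was 2.51-fold higher at 1 day (log2 difference 1.33, SE 0.24) and 1.36-fold higher at 14 days (log2 difference 0.44, SE 0.11), with no overlap with sham at either time. The A subunit was 21.9% ± 1.40 in sham, 41.4% ± 6.53 at 1 day and 27.5% ± 1.93 at 14 days of the summed level, and with the length of the principal transcripts 30.4% ± 1.74 in sham, 52.3% ± 6.80 at 1 day and 37.2% ± 2.26 at 14 days. Which subunit was the more abundant at 1 day therefore depends on the length used.

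Slc16a1 encodes MCT1, which carries lactate in both directions. Slc16a1 measured 154, 167 and 155 CPM in sham, 80.4, 90.9 and 104 CPM at 1 day and 133, 127 and 121 CPM at 14 days. Mice 4, 5 and 6 were lowest and the 14-day libraries lay between them and sham, with no overlap. Slc16a1 fell at 1 day (log2 fold -0.79, SE 0.12, edgeR adjusted p = 0.000286) and was higher at 14 days than at 1 day (log2 fold 0.47, SE 0.12, edgeR adjusted p = 0.00576), with adjusted p = 0.0879 at 14 days against sham, or 0.0215 without mouse 6. Slc16a3 encodes MCT4, an exporter of lactate in strongly glycolytic cells (chr11:120948480-120960868). Slc16a3 measured 0.837, 0.64 and 0.575 CPM in sham, 8.62, 8.02 and 5.69 CPM at 1 day and 0.727, 1.202 and 1.96 CPM at 14 days. Each 1-day library was above every other library, and library A lay within sham while B and C lay above it. Slc16a3 rose 10.8-fold at 1 day (log2 fold 3.43, SE 0.32, edgeR adjusted p = 2.69e-05) and was lower at 14 days than at 1 day (log2 fold -2.55, SE 0.28, edgeR adjusted p = 6.06e-05). At 14 days against sham it had adjusted p = 0.137, or 0.0236 without library A. The ratio of Slc16a3 to Slc16a1 per kilobase was 0.00454, 0.0032 and 0.00309 in sham, 0.0893, 0.0735 and 0.0455 at 1 day and 0.00455, 0.00788 and 0.0135 at 14 days. It was 18.8-fold higher at 1 day (log2 difference 4.23, SE 0.34) and 2.21-fold higher at 14 days (log2 difference 1.14, SE 0.49), and the sum of both was 35.9 ± 1.62 CPM per kilobase in sham, 22.1 ± 2.42 at 1 day and 29.0 ± 1.21 at 14 days. At 1 day mouse 6 was lowest both in this ratio and in the summed neutrophil markers, and highest in the summed cardiomyocyte markers (15300 CPM). Mouse 4 had a higher ratio than mouse 5 but a lower neutrophil sum (125 against 144 CPM). The part of these cells in the ratio was not tested.

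Glycogen synthesis starts with UDP-glucose, made by the enzyme of Ugp2, and a primer, glycogenin. Ugp2 measured 169.5, 152 and 154 CPM in sham, 63.8, 78.4 and 93.2 CPM at 1 day and 167, 175 and 191 CPM at 14 days. The 1-day libraries were below all others and the 14-day libraries lay within or above sham. Ugp2 fell 2.02-fold at 1 day (log2 fold -1.02, SE 0.14, edgeR adjusted p = 0.000193) and was higher at 14 days than at 1 day (log2 fold 1.18, SE 0.14, edgeR adjusted p = 8.29e-05). Glycogenin, encoded by Gyg, measured 55.6, 57.3 and 55.5 CPM in sham, 49.4, 63.2 and 50.6 CPM at 1 day and 56.8, 66.2 and 63.8 CPM at 14 days, with overlap at 1 day and adjusted p of 0.741 at 1 day and 0.389 at 14 days in edgeR. Gys1, the muscle glycogen synthase, measured 44.4, 49.1 and 44.1 CPM in sham, 25.5, 24.1 and 32.5 CPM at 1 day and 38.2, 28.5 and 29.2 CPM at 14 days. Both I/R groups were below sham and overlapped each other. Gys1 fell at 1 day (log2 fold -0.75, SE 0.14, edgeR adjusted p = 0.000918) and at 14 days (log2 fold -0.52, SE 0.14, edgeR adjusted p = 0.0265), and the 14-day call was lost without mouse 1, 2 or 3 or library B or C (adjusted p from 0.0643 to 0.124). The branching enzyme gene Gbe1 measured 28.5, 27.5 and 29.9 CPM in sham, 39.5, 48.1 and 38.2 CPM at 1 day and 27.9, 29.1 and 29.5 CPM at 14 days. Its 1-day libraries were above all others, and Gbe1 rose at 1 day (log2 fold 0.55, SE 0.10, edgeR adjusted p = 0.000777) and was lower at 14 days than at 1 day (log2 fold -0.54, SE 0.10, edgeR adjusted p = 0.000935).

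Glycogen phosphorylase releases glucose units from the store. The muscle form Pygm measured 424, 418 and 391.8 CPM in sham, 167, 131 and 266 CPM at 1 day and 378, 297 and 272 CPM at 14 days. Mice 4, 5 and 6 were below all others, mouse 6 the least, and libraries A, B and C were below sham. Pygm fell at 1 day (log2 fold -1.13, SE 0.23, edgeR adjusted p = 0.00182) and was higher at 14 days than at 1 day (log2 fold 0.75, SE 0.23, edgeR adjusted p = 0.0175), the latter lost under total count alone (edgeR adjusted p = 0.144) and without mouse 4 or 5 or library A (adjusted p from 0.0587 to 0.0764). The brain form Pygb measured 323, 313 and 281 CPM in sham, 124, 112 and 214 CPM at 1 day and 295, 246 and 239 CPM at 14 days. Mice 4, 5 and 6 were below the rest, and the 14-day libraries overlapped sham. Pygb fell at 1 day (log2 fold -1.03, SE 0.22, edgeR adjusted p = 0.00219) and was higher at 14 days than at 1 day (log2 fold 0.80, SE 0.22, edgeR adjusted p = 0.00975), the latter with edgeR adjusted p = 0.0795 under total count alone and 0.0517 without mouse 4. The ratio of Pygb to Pygm per kilobase was 0.509, 0.501 and 0.48 in sham, 0.495, 0.574 and 0.538 at 1 day and 0.523, 0.554 and 0.588 at 14 days. Unlike the other pairs it overlapped sham at 1 day (log2 difference 0.11, SE 0.07, two-sided exact permutation p = 0.3), and the difference between pairs was not tested. The sum of both forms was 191 ± 9.85 CPM per kilobase in sham, 89.6 ± 33.2 at 1 day and 152 ± 23.6 at 14 days.

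Of the 10 isoform ratios, 9 did not overlap with sham at 1 day, 6 did not at 14 days, and 9 did not between both I/R times. For single genes these shares were 63.2%, 39.4% and 56.3% of all tested genes. Wherever groups did not overlap, the two-sided exact permutation p was 0.1, the smallest that 3 against 3 libraries can give, and 0.125 after Benjamini-Hochberg adjustment over the 30 tests. At 1 day 8 ratios were higher and 1, Hk2 to Hk1, was lower. The ratio of Aldoc to Aldoa is among the 8 and rests on 1 to 8 counts of Aldoc per library.

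By mean level per kilobase of exon, Eno3 and Aldoa led in sham, each at 218 CPM per kilobase, ahead of Ldhb at 138, Pgam2 at 137 and Pygm at 128. With the length of the principal transcript Aldoa led at 419, ahead of Eno3 at 243. At 1 day Aldoa led at 150, followed by Eno3 at 91.0, Pgam2 at 63.3 and Pygm at 58.4 CPM per kilobase. The lowest tested member in sham was Slc16a3, at 0.129 CPM per kilobase. Levels of genes with near-identical copies, Gapdh above all, are uncertain in this order.

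Other genes of the same pathways were counted from lists chosen by function, with earlier results of these data known. Beside these lists stand the shares of all genes tested, 29.4% called higher and 24.8% lower at 1 day (48.6% and 7.48% under total count alone) and 8.75% higher and 5.64% lower at 14 days, and medians of all genes of 0.04 and 0.01. Of 8 genes of the pentose phosphate pathway, which branches off glycolysis and yields NADPH, 6 rose (75.0%, beside 29.4% of all genes) and 0 fell at 1 day in edgeR, with a median log2 fold of 0.59 beside 0.04 for all genes. Among them were H6pd (log2 fold 0.51, SE 0.09, adjusted p = 0.000951 in edgeR) and Taldo1 (log2 fold 0.66, SE 0.12, adjusted p = 0.00112 in edgeR). Of 10 genes that bring pyruvate into mitochondria and to acetyl-CoA, 9 fell (beside 24.8% of all genes) and 0 rose in edgeR, with a median of -0.98, among them Pdha1 (log2 fold -0.82, SE 0.17, adjusted p = 0.0018 in edgeR) and Dlat (log2 fold -0.96, SE 0.16, adjusted p = 0.000528 in edgeR), subunits of pyruvate dehydrogenase. Both lists kept the sign of their median under each scaling tried, with 6 higher pentose phosphate genes (75.0%, beside 48.6% of all genes) and 7 lower pyruvate genes (70.0%, beside 7.48%) under total count alone, where Pdha1 was not called (adjusted p = 0.104). Without mouse 6 the counts at 1 day were 6 higher and 9 lower, and without mouse 4 the pentose phosphate list had 1 lower gene. At 14 days 1 pentose phosphate gene was higher, G6pdx (log2 fold 0.90, SE 0.17, adjusted p = 0.00831 in edgeR), and 1 lower, Pgls (log2 fold -0.55, SE 0.16, adjusted p = 0.0419 in edgeR). Of the pyruvate genes 2 were lower, the mitochondrial pyruvate carriers Mpc1 (log2 fold -0.61, SE 0.15, adjusted p = 0.0211 in edgeR) and Mpc2 (log2 fold -0.51, SE 0.12, adjusted p = 0.0185 in edgeR). Pgls, Mpc1 and Mpc2 were not called under total count alone or without mouse 1, 2 or 3 or library B or C, and Pgls also not without mouse 5. Without mouse 6 there were 5 lower pyruvate genes and without library A 4.

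Of 9 tested genes of other carriers and their partners, 3 rose (33.3%, beside 29.4% of all genes) and 3 fell (33.3%, beside 24.8%) at 1 day, shares close to those of all genes. Without mouse 2 or mouse 4 only 1 rose. Emb, which encodes embigin, a partner protein of monocarboxylate carriers, rose at 1 day (log2 fold 3.31, SE 0.42, adjusted p = 0.00015 in edgeR) and at 14 days (log2 fold 1.98, SE 0.46, adjusted p = 0.0176 in edgeR). Bsg, which encodes basigin, the usual partner of MCT1 and MCT4, fell from 403 ± 4.39 CPM to 206 ± 47.6 CPM at 1 day (log2 fold -0.97, SE 0.17, adjusted p = 0.000643 in edgeR). The glucose carrier gene Slc2a3 rose (log2 fold 0.80, SE 0.24, adjusted p = 0.0143 in edgeR), a call lost without mouse 2 (adjusted p = 0.0619) or mouse 4 (0.0917), and Slc2a12 fell (log2 fold -2.42, SE 0.39, adjusted p = 0.000691 in edgeR). Slc2a13, a carrier of myo-inositol, was higher at 14 days (log2 fold 1.73, SE 0.39, adjusted p = 0.0151 in edgeR). The 14-day call was lost without mouse 2 for Emb (adjusted p = 0.0983 in edgeR) and without mouse 2, mouse 3 or library C for Slc2a13 (0.0534 to 0.0888).

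Of 15 other glycolysis genes tested, 4 rose (26.7%, beside 29.4% of all genes) and 7 fell (46.7%, beside 24.8%) at 1 day. Under total count alone 7 rose (46.7%, beside 48.6%) and 3 fell (beside 7.48%). Adpgk, an ADP-dependent glucokinase, rose (log2 fold 0.93, SE 0.15, adjusted p = 0.000403 in edgeR), as did Minpp1 (log2 fold 0.66, SE 0.15, adjusted p = 0.00349 in edgeR), while Gpd1l (log2 fold -0.84, SE 0.11, adjusted p = 0.000113 in edgeR) and Tigar (log2 fold -0.63, SE 0.12, adjusted p = 0.000968 in edgeR), a phosphatase of fructose bisphosphate, fell, the last 2 not under total count alone. At 14 days 3 of the 15 were lower, with Fbp2, the muscle fructose-bisphosphatase (log2 fold -0.86, SE 0.24, adjusted p = 0.0355 in edgeR), and Gpd1 (log2 fold -0.56, SE 0.11, adjusted p = 0.00802 in edgeR) as the most abundant, Gpd1 not under total count alone or without mouse 2. Fbp2 lost its call without mouse 1, 2 or 3 or library B or C, and of the 15 genes 0 were lower without mouse 2 and 1 without library B, library C, mouse 1 or mouse 3. Of 21 other glycogen genes tested, 5 rose (23.8%, beside 29.4% of all genes) and 11 fell (52.4%, beside 24.8%) at 1 day. Under total count alone 8 rose (38.1%, beside 48.6%) and 4 fell (19.0%, beside 7.48%), and without mouse 1, 2, 3 or 5 the number that rose was 3 and without mouse 4 it was 2. Ppp1r3a, which encodes a glycogen-targeting subunit of protein phosphatase, fell (log2 fold -0.50, SE 0.19, adjusted p = 0.0433 in edgeR, adjusted p = 0.812 under total count alone and from 0.0574 to 0.128 without mouse 1, 2, 3, 4 or 5 or library B), and Pgm2, a phosphoglucomutase, rose (log2 fold 0.81, SE 0.21, adjusted p = 0.00731 in edgeR). Phka2, a subunit of phosphorylase kinase, rose (log2 fold 0.23, SE 0.09, adjusted p = 0.0494 in edgeR), which was lost under the 3 scalings other than total count and without any 1 library other than library A. At 14 days 2 of the 21 were lower, the targeting subunits Ppp1r3b (log2 fold -0.71, SE 0.16, adjusted p = 0.0175 in edgeR) and Ppp1r3d (log2 fold -0.62, SE 0.17, adjusted p = 0.0297 in edgeR), neither of which was called under total count alone. The number was 0 without mouse 2, mouse 3 or library C, 1 without mouse 1 or library B, and 4 without mouse 6.

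Of 9 tested genes of the hexosamine and polyol pathways, 3 rose (33.3%, beside 29.4% of all genes) and 3 fell (33.3%, beside 24.8%) at 1 day. Their median log2 fold at 14 days was 0.08. Under total count alone 5 rose at 1 day (55.6%, beside 48.6%) and 1 fell (11.1%, beside 7.48%). Gfpt1, the entry enzyme of hexosamine synthesis, rose (log2 fold 0.99, SE 0.10, adjusted p = 3.65e-05 in edgeR), and the polyol genes Sord (log2 fold -0.99, SE 0.19, adjusted p = 0.00168 in edgeR) and Akr1b3 (log2 fold -0.92, SE 0.15, adjusted p = 0.000473 in edgeR) fell, Akr1b3 not under total count alone. Of 12 genes of insulin signalling to GLUT4, 3 rose (beside 29.4% of all genes) and 4 fell (33.3%, beside 24.8%) at 1 day. The number that fell was 8 with DESeq2's size factors, 7 with upper-quartile scaling and 2 under total count alone, where 4 rose (33.3%, beside 48.6%). The receptor gene Igf1r rose (log2 fold 0.82, SE 0.12, adjusted p = 0.000305 in edgeR), as did Tbc1d1 (log2 fold 0.68, SE 0.14, adjusted p = 0.00183 in edgeR). Tbc1d4, which encodes the Akt substrate AS160 that controls GLUT4 movement, fell (log2 fold -0.91, SE 0.16, adjusted p = 0.000918 in edgeR). Akt1 fell at 1 day (log2 fold -0.29, SE 0.11, adjusted p = 0.0459 in edgeR, log2 fold 0.18 under total count alone, adjusted p from 0.0612 to 0.166 without mouse 1, 2, 4 or 5 or library B) and at 14 days (log2 fold -0.41, SE 0.11, adjusted p = 0.0321 in edgeR), when Irs1 was lower too (log2 fold -0.42, SE 0.13, adjusted p = 0.0493 in edgeR). The call of Irs1 was lost under total count alone (adjusted p = 0.346 in edgeR) and upper-quartile scaling (0.0557). It was also lost without mouse 1, 2, 3 or 4 or library B or C (0.0593 to 0.195). The 14-day call of Akt1 was lost under total count alone (adjusted p = 0.347 in edgeR) and without mouse 1 or 2 or library B or C (0.117 to 0.143). At 14 days 3 of the 12 were lower. There were 0 under total count alone and without mouse 1, mouse 2, library B or library C, and 5 without mouse 6 or library A.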

How the data were processed

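Libraries were stranded and depleted of ribosomal RNA, per the labels' protocols. The submitters' processing notes name STAR 2.7.1a and build GRCm38 (mm10). The values the authors deposited are raw read counts for each gene. How reads were counted, with which annotation, strand setting and rule for multiple matches, is not given in the sources used here. Names came from GENCODE release M21 (36429 of 38293 genes). The main test was edgeR's quasi-likelihood test (version 4.0.16, R 4.3.3; TMM scaling, its filter on low counts, robust dispersion, all 9 libraries in 1 fit, Benjamini-Hochberg adjustment, threshold 0.05). The SE is the unshrunk log2 fold divided by the square root of F. The fit was checked on simulated counts. Isoform ratios used raw counts per kilobase of all annotated exons and two-sided exact permutation tests.

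Every pair of replicates differed by more than counting noise, with a chi-square of 7.47 to 99.3 per degree of freedom, and each was kept as its own replicate. Alternatives were DESeq2 1.42.0, its size factors, total count alone, upper-quartile scaling, scaling without mitochondrial and ribosomal RNA genes, limma-voom (limma 3.58.1), other filters, a fit of 2 groups alone and each library left out. Adding near-identical copies (BLAST, at least 90% identity over at least 50% of the copy's longest transcript) and the length of the principal transcript were chosen after seeing the data. In all, 13 members share exonic bases with another gene and 4 share at least 10% of theirs. The members and lists were chosen with earlier results of these data known. Every member is named, and of the other lists up to 2 called genes with the highest mean CPM per direction, of which 1 is not reported here.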

Additional observations from a re-analysis of the deposited data

How the results depend on the processing

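No paired analysis was possible because the groups share no replicate numbers. Over the settings, 1647 of the recomputed log2 folds of members kept their direction and side of the threshold, 55 lost their call, 33 gained one and 34 changed sign, of which 1 also lost and 1 also gained a call. Under total count alone 14 members were higher and 10 lower at 1 day (median 0.14). At 14 days 0 were then lower, with 832 genes called in all. Between 14 days and 1 day 7 members were then higher (median -0.25), beside 7.55% of all genes. In all genes the split at 1 day was then 6860 higher and 1057 lower, against 4153 and 3496. At 14 days 4 members were lower in DESeq2, beside 4.02% of its 24016 genes. In a fit of those groups alone 6 were lower, beside 9.95% of all genes, with 2853 genes called in all. Leaving out 1 library gave 478 to 3221 genes called at 14 days, with 0 to 3 members higher and 0 to 7 lower, and members' medians between 14 days and 1 day of 0.07 to 0.21. Ratio differences that changed sign when a library was left out were Pgam1 to Pgam2 (-0.51 to 0.01) and Eno1 to Eno3 (-0.03 to 0.19) at 14 days and Pygb to Pygm (-0.0035 to 0.10) between both times.

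Log2 folds that changed sign under total count alone were Gpi1 (0.14), Pkm (0.44) and Gyg (0.43) at 1 day, Tpi1 (0.01) and Pgk1 (0.08) at 14 days, and Gpi1 (-0.25), Pfkl (-0.30), Aldoa (-0.03), Ldha (-0.38), Gys1 (-0.16) and Gyg (-0.17) between 14 days and 1 day. Others were Ldha at 1 day with DESeq2's size factors (-0.002) and between both times with no filter (-0.01), Gapdh at 1 day with copies added (-0.20), and Gbe1 at 14 days with those size factors and in DESeq2 (both -0.01) and without mitochondrial and ribosomal RNA genes (-0.0025). Sign changes with a library left out had ranges of -0.02 to 0.09 for Ldha and -0.14 to 0.0048 for Pkm at 1 day. At 14 days they were -0.18 to 0.05 for Hk1, -0.10 to 0.04 for Pgk1, -0.02 to 0.04 for Gbe1, -0.35 to 0.23 for Pfkfb1 and -0.01 to 0.08 for Ldha. Between both times they were -0.04 to 0.21 for Pfkl and -0.04 to 0.07 for Ldha. The cause of these changes was not tested. Genes with a few counts per library, such as Aldoc, are limited by depth.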
